A study of Homo sapiens with 4 samples.

Results

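The 2600 regions described here are promoter peaks of the transcription factor c-MYC that were called in solvent-treated MIA PaCa-2 cells and overlapped no c-MYC peak after treatment with either of 2 drugs. MIA PaCa-2 is an established human line of pancreatic ductal adenocarcinoma. The solvent was DMSO and the drugs were AMG510 (100 nM), an inhibitor, and trametinib (10 nM), which inhibits the kinase MEK, each given for 8 h, and bound DNA was recovered by chromatin immunoprecipitation and sequenced (ChIP-seq). The series holds 4 libraries, 1 with a c-MYC antibody for each treatment and 1 with non-specific immunoglobulin (IgG) from the DMSO-treated cells. No group was replicated, so nothing below has a replicate check, and each interval covers counting error only. A promoter peak had its summit, the base of deepest coverage, at most 1 kb from where a protein-coding transcript starts (the transcription start site, TSS). The peaks were selected on measured values, namely a peak call in the DMSO list and no call at the same place in either drug list, so their absence, their DMSO strength and their number are a description and were not tested. Of 9552 DMSO c-MYC peaks, 4617 were promoter peaks, and 2600 of those (56.3%, Wilson 95% interval 54.9 to 57.7) overlapped neither drug list. Over all DMSO peaks 73.3% overlapped neither, and over the 4935 peaks away from promoters 89.1% did. The other 2017 promoter peaks were kept: 738 overlapped an AMG510 peak only, 487 a trametinib peak only and 792 a peak under both drugs.

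MYC binds DNA as a heterodimer with MAX, through a basic helix-loop-helix domain that contacts the E-box CACGTG and, with lower affinity, variants such as CACGCG. It is found at a large share of open, CpG-rich promoters, many of them without an E-box, and the genes of ribosomes, translation and nucleotide synthesis are its best-known targets. The ERK kinase pathway, which acts downstream of MEK, is known to phosphorylate and stabilise the MYC protein.

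To show what an absent peak can look like at the level of sequence, the E-box nearest to the summit is printed below for 8 of the strongest such peaks, and for the 3 absent peaks at genes of lipid synthesis that had one. Each line gives 30 bases of the plus strand of GRCh38, 5′ to 3′, with the E-box in capitals.
MSN, chrX:65667495-65667524: agccgggcccccCACGTGgccgctgtggcc
RPIA, chr2:88691963-88691992: gctgtggagaacCACGTGagggtgagcact
CLUAP1, chr16:3500902-3500931: cccgtgcgtatgCACGTGccgccgcgtctt
RASL10B, chr17:35732032-35732061: gcgcggggccgcCACGTGagagctggagct
NUDT11, chrX:51496849-51496878: cgcgctcccgttCACGTGcgcgttcgcggc
ZNF331, chr19:53537802-53537831: ggggtgcacgcaCACGTGtcagtgtgtccg
ZNF529, chr19:36573176-36573205: ggctcccggctcCACGTGgaccgacctcgc
PFKFB3, chr10:6163795-6163824: gcacgccgcgttCACGTGctgtcgcgcgcc
FASN, chr17:82098584-82098613: gtccgccggggcCACGTGtgcgggatggga
ELOVL1, chr1:43367282-43367311: gggccactcacaCACGTGtgcgcgctgcct
PMVK, chr1:154936530-154936559: cactcctcgtgtCACGTGatgcggagagct
The E-box lay within 4 bp of the summit at RPIA, ZNF529 and FASN, and 81 bp from it at PFKFB3. ZNF331 had 2 E-boxes within 100 bp, of which the nearer is shown.

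Peaks absent under both drugs were weaker in DMSO than the kept promoter peaks and about as strong as the DMSO list as a whole. The fold enrichment was given by the authors' peak caller. It is the ratio of the coverage at the summit to the local background, after a small constant was added to both. Its median was 4.55 (range 2.85 to 11.7) at the absent peaks and 6.58 at the peaks kept under both drugs. The coverage at the summit was a median of 14 tags (range 8 to 36) against 25, where a tag is an aligned read extended to the fragment length. The absent peaks were also narrower, with a median width of 251 bp against 457 bp. Peaks kept under AMG510 only or trametinib only lay between, with median fold enrichments of 5.05 and 5.03 and 17 tags each. Over all 9552 DMSO peaks the medians were 4.60, 13 tags and 241 bp. All of these measures belong to the list the peaks were selected from. Coverage at the same sites in the drug libraries was not analysed here, so a site absent from a drug list may have had coverage below the limit of calling.

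The share of promoter peaks that was absent fell in steps as DMSO strength rose. It was 77.8% below a fold enrichment of 4, 67.5% from 4 to 5, 53.8% from 5 to 6, 30.0% from 6 to 8 and 8.36% at 8 and above. By coverage, 85.5% of the 269 promoter peaks of 8 to 10 tags were absent and 2.15% of the 326 peaks of 31 tags or more. Depth, estimated from the genome-wide background, was close to even. It was 24000000 tags in calling in the DMSO c-MYC library, 24300000 under AMG510, 24800000 under trametinib and 22700000 in IgG. The study's own counts of uniquely mapped reads order the c-MYC libraries differently, with trametinib the lowest. At the genome-wide background, 8 tags sufficed for a call in DMSO and trametinib c-MYC and 7 in AMG510 c-MYC. The 792 peaks kept under both drugs had a median of 25 tags in DMSO and, at the overlapping peaks, 16 under AMG510 and 17 under trametinib. These levels are not scaled to one another, since tags were extended to 177 bp in DMSO, 157 bp under AMG510 and 163 bp under trametinib. How many absent sites only passed below the limit of calling was not tested.

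**Figure D1:**
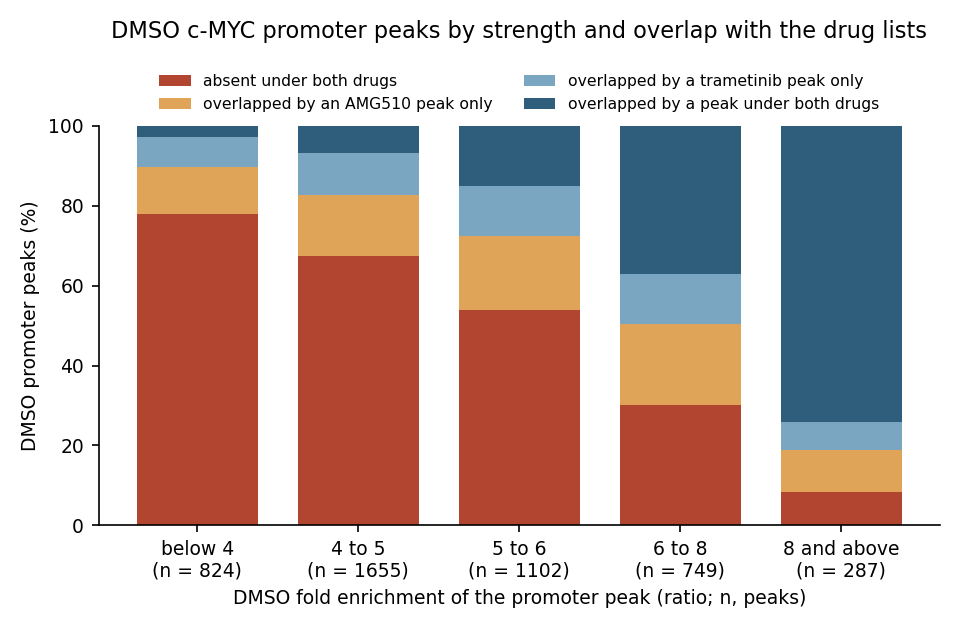
DMSO c-MYC promoter peaks (y axis, percent of peaks) by class of DMSO fold enrichment (x axis, ratio, with the number of peaks), stacked by overlap with the AMG510 and trametinib peak lists. The absent share drops from 77.8% in the weakest class to 8.36% in the strongest.

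A minority of absent sites had a drug peak close by, and peaks that overlapped one had been left out by the rule. A peak of either drug lay within 100 bp of 105 of the 2600 (4.04%), within 500 bp of 385 (14.8%) and within 1 kb of 493 (19%). AMG510 peaks lay within 1 kb of 340 absent peaks and trametinib peaks within 1 kb of 240, in lists of 10378 and 5431 peaks. A second DMSO promoter peak that was kept under at least 1 drug lay within 500 bp of 122 absent peaks (4.69%) and within 2 kb of 174, so that for these the absent peak was a neighbour of a kept one. At the edge of the overlap rule, an AMG510 peak touched the absent peak at RUFY2 (gap of 0 bp, 12 DMSO tags) and a trametinib peak that at CTIF (gap of 0 bp, 19 tags), whereas the DMSO peak at BMP8B (24 tags) overlapped a drug peak by 4 bp and was not counted as absent. At the edge of the promoter distance, the absent peak at CPT1A, the carnitine palmitoyltransferase of fatty acid oxidation, had its summit 999 bp from a TSS (fold enrichment 5.95, 16 tags), and that at MTURN, 1002 bp from a TSS (6.18, 17 tags), fell outside.

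Sequence was not used in selecting the peaks and could be compared between classes. An E-box within 100 bp of the summit was present at 319 of the 2600 absent peaks (12.3%, Wilson 95% interval 11.1 to 13.6), at 17.6% of peaks kept under AMG510 only, at 22.0% of those kept under trametinib only and at 28.5% of those kept under both. The absent share was lower than the share kept under both by 16.3 points (difference −16.3, Newcombe 95% interval −19.7 to −13.0). It was above the 5.67% of windows of the same 201 bp at the canonical TSSs of all 20033 protein-coding genes and the 4.68% at the 15270 canonical TSSs of genes without a DMSO promoter peak. Those windows were centred on TSSs and not on summits, and were not matched for base composition. GC content above 50% with an observed-over-expected CpG ratio above 0.6 marked 67.9% of all canonical TSS windows and 86.7% of windows at absent summits. Around the absent summits E-boxes numbered 3.96 per 100 peaks in the 50 bp of lower coordinate and 4.31 in the 50 bp of higher coordinate, and 1.00 to 1.12 in each bin of 50 bp from 250 to 500 bp on the higher side. The peaks kept under both drugs had 10.1 and 9.97 in the same bins next to the summit.

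**Figure D2:**
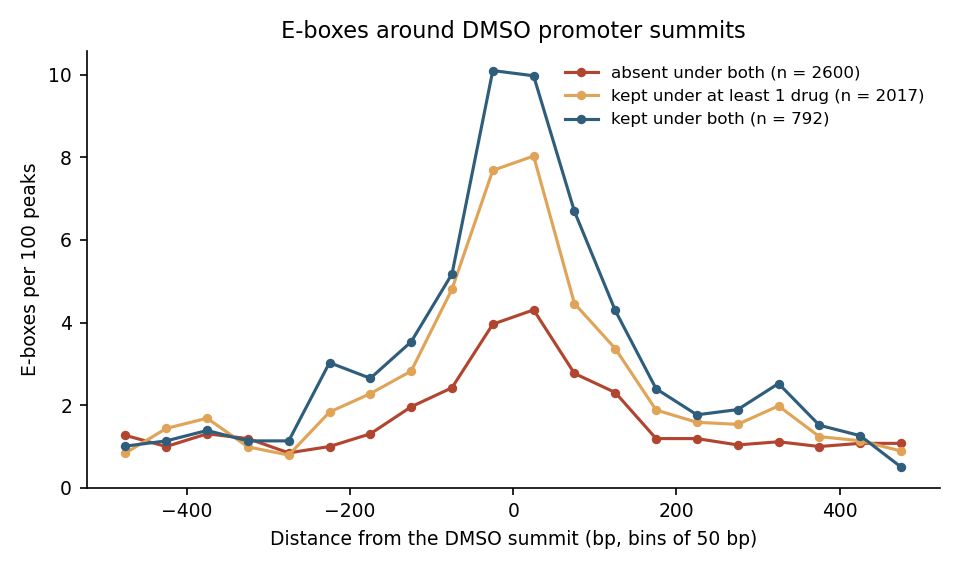
E-boxes per 100 peaks (y axis) in bins of 50 bp by distance from the DMSO summit (x axis, bp, plus strand), for absent peaks, peaks kept under at least 1 drug and peaks kept under both. All profiles are highest at the summit, where the absent peaks reach 4.31 and the peaks kept under both 10.1 per 100 peaks.

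Part of the difference in E-box share moved with strength. E-boxes were more frequent at stronger peaks in both classes, from 7.02% below a fold enrichment of 4 to 41.7% at 8 and above among absent peaks, and from 11.5% to 43.0% among peaks kept under at least 1 drug. Within a class of strength, absent peaks had the lower share throughout. The difference was −4.46 points below 4 (Newcombe 95% interval −10.2 to −0.0019), −3.11 from 4 to 5 (−6.71 to 0.21), −2.33 from 5 to 6 (−7.01 to 2.28), −12.1 from 6 to 8 (−18.0 to −5.53) and −1.30 at 8 and above (−19.5 to 19.1). The interval was clear of 0 from 6 to 8, where 38 of 225 absent peaks and 152 of 524 kept peaks had an E-box, and ended at −0.0019 below 4. It held 0 in the other 3 classes. With the kept peaks weighted to the strength of the absent ones, their E-box share was 16.3% against 12.3%, a difference of −4.03 points in place of −10.7 without weighting. Absent peaks with an E-box had a median fold enrichment of 4.96 and 16 tags, and those without 4.50 and 14 tags.

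**Figure D3:**
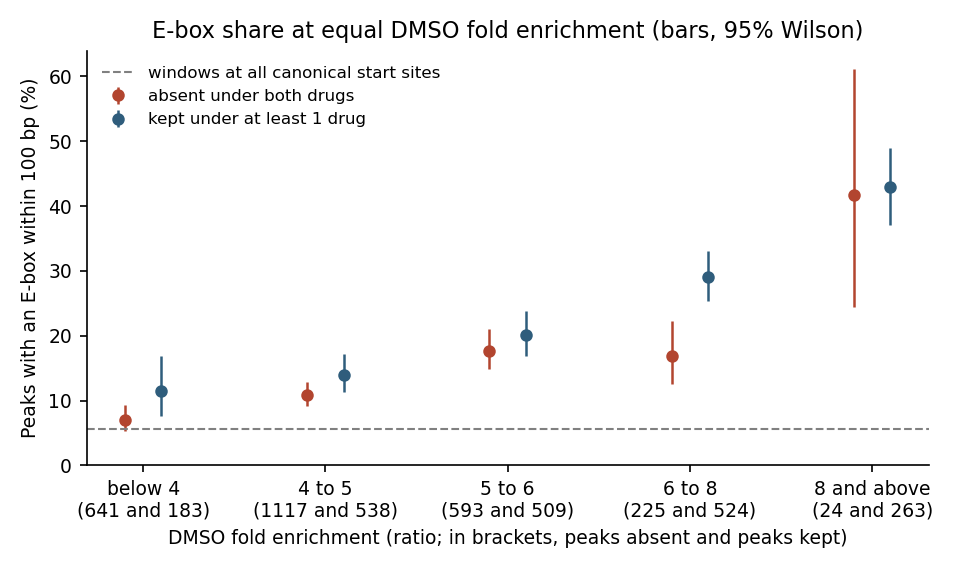
Share of DMSO promoter peaks with an E-box within 100 bp of the summit (y axis, percent, bars are Wilson 95% intervals) by class of DMSO fold enrichment (x axis, ratio), for absent and kept peaks, with the 5.67% of windows at all canonical start sites as a dashed line. Both classes climb with strength, and the gap is widest from 6 to 8, at 16.9% against 29.0%.

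Other promoter sequences were looked for on both strands in the same window. The variant CACGCG was present at 19.5% of absent peaks and 30.8% of those kept under both drugs (difference −11.3 points, −15.0 to −7.86). GGGCGG, the core of the GC box bound by SP1 and its relatives, was at 57.9% and 63.6% (−5.75, −9.54 to −1.86), and CCGGAA, the core of ETS sites, at 12.9% and 15.9% (−3.02, −6.00 to −0.29). The intervals held 0 for CCAAT, the box bound by NF-Y (10.2% and 7.83%, difference 2.33, −0.029 to 4.40), for TGACGTCA, the element bound by CREB (0.46% and 0.63%, −1.03 to 0.33), and for GCATGC, part of the site of NRF1 (3.62% and 3.79%, −1.87 to 1.2). Against peaks kept under at least 1 drug, CCAAT was more frequent at absent peaks with an interval clear of 0 (2.77 points, 1.12 to 4.38). Of all canonical TSS windows 10.7% held CACGCG, 53.7% GGGCGG, 17.8% CCGGAA, 25.3% CCAAT, 2.03% TGACGTCA and 5.32% GCATGC. A CpG-rich window, with over 50% GC and an observed-over-expected CpG ratio above 0.6, surrounded 86.7% of absent summits and 93.9% of those kept under both (−7.25, −9.24 to −4.99), against 67.9% of canonical TSS windows. These motifs and CpG richness move with base composition, and the differences were not compared within classes of strength. A match to these letters is a description of the window and not a bound site.

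How position relative to start sites compared depended on the distance and on the class compared. The summit was within 250 bp of a protein-coding TSS at 64.0% of absent peaks and 72.5% of those kept under both drugs (−8.44 points, Newcombe 95% interval −12.0 to −4.74), and at 67.4% of those kept under at least 1 drug (−3.34, −6.08 to −0.58). Within 100 bp the shares were 31.7% and 33.2% (−1.51, −5.30 to 2.16), and 31.7% of peaks kept under at least 1 drug (−0.038, −2.75 to 2.66). It was upstream of the nearest TSS at 33.8% and 30.6%, a difference whose interval held 0 (3.21, −0.54 to 6.83). Start sites of genes on both strands lay within 1 kb of 11.2% of absent peaks and 13.9% of those kept under both (−2.66, −5.49 to −0.087), but against the 12.5% of peaks kept under at least 1 drug the interval held 0 (−1.31, −3.22 to 0.56). IgG peaks, which mark places recovered without the c-MYC antibody, overlapped 5 of 2600 absent peaks (0.192%) and 1 of 792 kept ones (0.126%), a difference of 0.066 points with an interval from −0.53 to 0.34. The 5 were at ADAP1 (20 tags), EGLN1 (18 tags), GRHL1 (15 tags), ARHGDIA (29 tags) and SLCO4A1 (17 tags).

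The strongest absent peak was at MSN, which encodes moesin, a linker of actin to the plasma membrane. It covered chrX:65667309-65667625, with the summit 171 bp upstream of the canonical TSS, a fold enrichment of 11.7 and 29 tags (exact Poisson 95% interval 19.4 to 41.6); by fold enrichment it ranked 55 among the 9552 DMSO peaks. The nearest AMG510 peak was 54597 bp away and the nearest trametinib peak 1461959 bp. At RPIA, the ribose 5-phosphate isomerase that feeds nucleotide synthesis, the peak covered chr2:88691704-88692130 in coding exon 1, with a fold enrichment of 10.2 and 30 tags (20.2 to 42.8). The same peak lay 496 bp from a start site of EIF2AK3, the endoplasmic reticulum kinase of eIF2α. CLUAP1, a component of intraflagellar transport, had a peak at chr16:3500796-3501067 with a fold enrichment of 9.90 and 28 tags. The peak of TMEM131L, chr4:153465685-153466223, had 9.58 and 33 tags and no E-box, and that of RASL10B, a small GTPase of the RAS superfamily, 9.39 and 25 tags in intron 1.

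The 25 absent peaks of highest fold enrichment, 1 for each gene, held 20 to 33 tags. In 10 of them an E-box lay within 100 bp, and in 16 the summit was upstream of the canonical TSS. At HMGB1, NFE2L2, PFKFB3 and YIPF7 that TSS was 151648, 127891, 39039 and 27028 bp away, and the peak lay near another TSS. The count of 16 is therefore not comparable with the 33.8% upstream of the nearest TSS. A drug peak lay within 1 kb of 1 of the 25, the peak at ZNF331 with an AMG510 peak of 12 tags at 694 bp. Regulators of chromatin and transcription among them were HMGB1, an abundant chromatin protein (fold enrichment 8.96, 27 tags), NFE2L2, the antioxidant factor NRF2 (8.05, 24 tags), KMT2A, a histone H3 lysine 4 methyltransferase (7.95, 23 tags), and the zinc finger genes ZNF331 (9.01, 27 tags), ZNF529 (8.79, 26 tags), ZNF621 (8.75, 24 tags) and ZFP64 (8.52, 30 tags). Metabolic and mitochondrial genes were NUDT11, an inositol pyrophosphate hydrolase (9.04, 25 tags), PFKFB3, which makes the glycolytic activator fructose 2,6-bisphosphate (8.67, 27 tags), MTLN, a mitochondrial microprotein (8.65, 30 tags), and TCAIM, a mitochondrial protein (8.93, 22 tags). MCM10 acts in replication initiation (8.57, 25 tags), U2AF1 recognises the 3′ splice site (8.16, 20 tags), and UBA2 is a subunit of the SUMO-activating enzyme (8.93, 28 tags). The remaining ones were NDRG1, a stress-responsive gene (8.93, 28 tags), EPHA8, an ephrin receptor (8.94, 22 tags), CCDC88A, the actin-binding protein girdin (8.14, 24 tags), LRRC58 (8.55, 26 tags), NEPRO (8.28, 24 tags) and YIPF7 (8.16, 20 tags). All 25 were above the median of 6.58 of the peaks kept under both drugs. They were chosen by that same fold enrichment, so this does not compare the 2 classes.

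**Figure D4:**
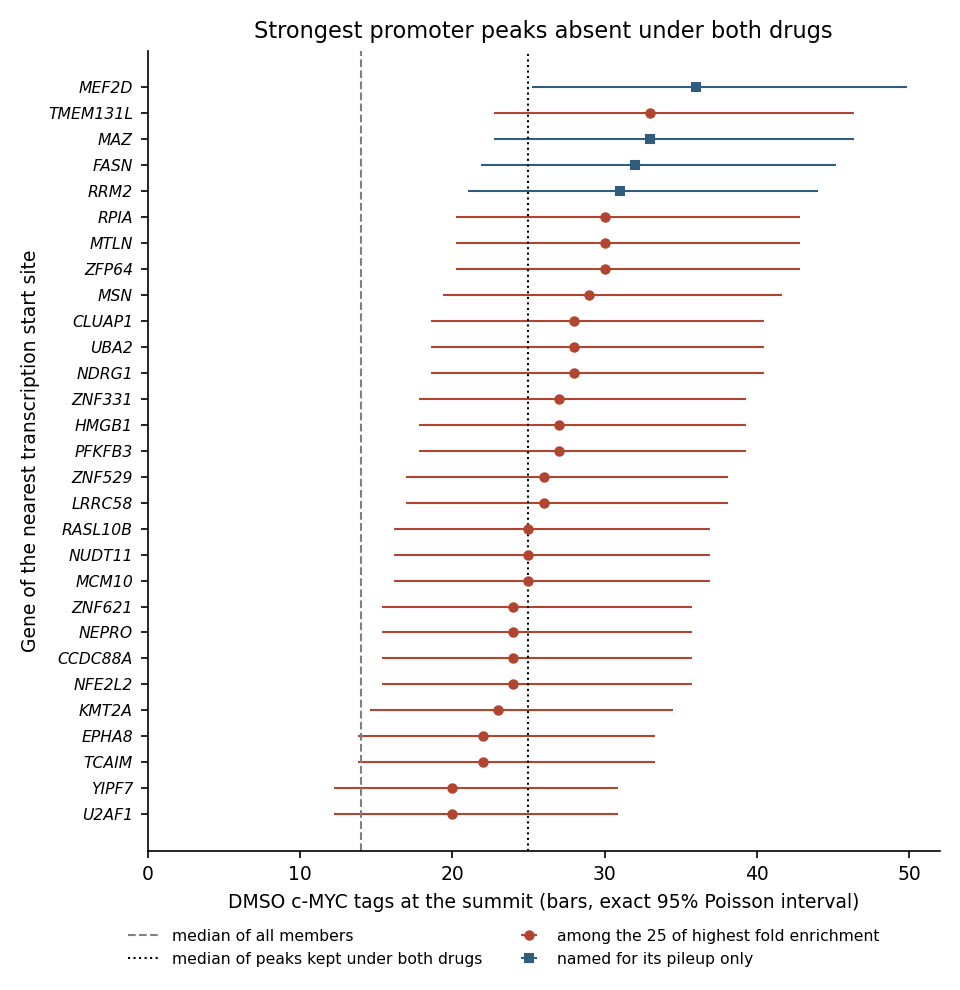
DMSO c-MYC tags at the summit (x axis, bars are exact Poisson 95% intervals) of the 25 absent peaks of highest fold enrichment (circles) and of the 4 others among the 5 of largest pileup (squares), by gene. The named peaks, chosen for high fold enrichment or pileup, hold 20 to 36 tags. The median is 14 tags for all absent peaks (dashed line) and 25 tags for peaks kept under both drugs (dotted line).

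Coverage and fold enrichment did not rank the peaks alike. The 5 largest pileups were at MEF2D, a transcription factor of the MADS-box family (36 tags, fold enrichment 6.89), TMEM131L (33 tags), MAZ, a zinc finger factor that binds GC-rich promoters (33 tags, 5.78), FASN, the fatty acid synthase (32 tags, 6.04), and RRM2, the regulatory subunit of ribonucleotide reductase (31 tags, 7.16). RRM2 shared 31 tags with 2 others, LPCAT1 and SYNCRIP. MEF2D, MAZ and FASN stood on local backgrounds of 4.37, 4.89 and 4.46 tags, against a median of 2.37 over the absent peaks.

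A gene could have several promoter peaks, so absence of a peak is not absence of c-MYC from the gene. Of 4763 genes with a DMSO promoter peak, 2780 (58.4%) had at least 1 absent peak. At 242 of them another DMSO promoter peak was kept. Where none was kept, a drug peak could still lie elsewhere in the promoter, which was so in AMG510 only at 228 genes, in trametinib only at 129 and in both at 46. The remaining 2135 genes (44.8% of the 4763, Wilson 95% interval 43.4 to 46.2) had no promoter peak under either drug and are called peak-free below. The 2600 absent peaks included 345 within 1 kb of start sites of 2 or more genes. At most 3 absent peaks lay at a gene, and 176 genes had 2. Genes with 3 included PDE8A, a phosphodiesterase of cyclic AMP, with fold enrichments of 4.82, 4.52 and 4.09. PPP2R5C, a regulatory subunit of protein phosphatase 2A, had peaks of 7.0, 6.30 and 4.36.

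The share of genes with an absent peak varied between lists, and the counts below are read against 58.4% of all genes with a DMSO promoter peak, whose strongest promoter peak had a median fold enrichment of 5.01. Counts of peak-free genes are read against 44.8% of all genes with a DMSO promoter peak and 76.8% of all genes with an absent peak. The counts use the calls the peaks were selected on and describe the lists, with no test. A peak near start sites of several genes counts for each of them. Lists can therefore share peaks, as at CCNE2 and NDUFAF6 and at RARS2 and ORC3.

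Few genes of the cytosolic ribosome had an absent peak. Of 71 ribosomal protein genes with a DMSO promoter peak 7 (9.86%) had one, and 2 were peak-free, among them RPS12 (fold enrichment 4.32, 18 tags). RPS26 (5.09, 15 tags) and RPL10 (4.60, 15 tags) had a trametinib peak 155 and 580 bp away, and RPL3 (4.29, 15 tags) an AMG510 peak at 80 bp and a trametinib peak at 30 bp. RPL6 (4.41, 13 tags) and RPL26 (4.07, 19 tags) had another promoter peak that was kept. The list was bound strongly, with a median over its genes of 7.56 for the strongest DMSO peak. Of 8 well-known MYC targets with a DMSO promoter peak (median 9.21) only PTMA, the gene of prothymosin alpha, had an absent peak (3.77, 23 tags), beside a kept one.

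Genes that build and serve the ribosome were also below the overall share. The median of the strongest DMSO peak was 6.78 in ribosome biogenesis, 6.12 in translation factors and 5.09 in tRNA synthetases. It was 5.75 in RNA polymerase subunits and 5.78 in splicing factors, against 5.01 over all genes. Shares of lists were not compared at equal strength. In ribosome biogenesis 8 of 29 genes (27.6%) had an absent peak and 7 were peak-free, among them RRP9, a component of the U3 particle (6.11, 17 tags), NOP14, of the small-subunit processome (5.78, 14 tags), and NHP2, of H/ACA particles (5.47, 22 tags). Among translation factors and their regulators it was 13 of 36 (36.1%), with 10 peak-free. They included GSPT1, the release factor eRF3a (7.16, 22 tags), and EIF4E, the cap-binding protein (6.01, 18 tags). Also among them were 3 kinases of eIF2α, namely EIF2AK3, EIF2AK1 (6.12, 19 tags) and EIF2AK2 (4.43, 14 tags). EIF2AK3 had the shared RPIA peak, 64508 bp from its canonical TSS, and a weaker one near that TSS (4.33, 12 tags). Aminoacyl-tRNA synthetases had absent peaks at 8 of 18 genes (44.4%), led by YARS1 (7.78, 24 tags) and VARS1 (6.69, 29 tags), the latter with drug peaks 491 and 418 bp away. Subunits of RNA polymerases I, II and III had them at 4 of 10, led by POLR1C (6.46, 24 tags) with an AMG510 peak 338 bp away. SR and hnRNP splicing factors had them at 8 of 24 (33.3%), led by HNRNPM (6.63, 21 tags). The HNRNPM peak lay 41179 bp from the canonical TSS, near another start site, and its peak near the canonical TSS was weaker (4.01, 14 tags). HNRNPM was 1 of 2 peak-free genes of that list.

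Among nuclear genes of mitochondrial proteins the counts were 12 of 33 and 17 of 32. Mitochondrial ribosomal proteins had absent peaks at 36.4% of their genes, with 8 peak-free. The highest were MRPL17 (5.44, 13 tags), MRPS16 (5.38, 14 tags) and MRPL40 (5.15, 24 tags), the last with a trametinib peak 387 bp away. In the respiratory chain the share was 53.1%, led by NDUFAB1, the mitochondrial acyl carrier protein (6.6, 16 tags), and the complex I subunit NDUFA6 (5.60, 15 tags). The median DMSO strength of these lists, 5.20 and 4.99, was close to that of all genes.

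Genes of nucleotide synthesis, replication and the cell cycle had shares near or below the 58.4% of all genes. Of 21 nucleotide and one-carbon genes 11 (52.4%) had one, and 7 were peak-free, including RPIA, RRM2, TYMS, the thymidylate synthase (4.96, 16 tags), and IMPDH2, of guanine nucleotide synthesis (4.05, 11 tags). In DNA replication it was 10 of 17 (58.8%), with MCM10 the strongest. Others were MCM8 (6.39, 21 tags), POLD3, of DNA polymerase delta (6.38, 16 tags), and the sliding clamp PCNA (5.53, 19 tags). MCM8 had a trametinib peak 859 bp away, and the POLD3 peak lay 99229 bp from the canonical TSS, near another start site. In the cell cycle 7 of 15 genes (46.7%) had an absent peak, and all 7 were peak-free. Over all genes, 76.8% of those with an absent peak and 44.8% of those with a DMSO promoter peak were peak-free. The 7 included CDKN1B, an inhibitor of cyclin-dependent kinases (5.16, 25 tags), the cyclin genes CCNE1 and CCNE2, and the mitotic checkpoint kinase BUB1B (4.83, 14 tags). The others were E2F1, the factor that drives S-phase genes (4.54, 14 tags), the phosphatase CDC25B and the kinase CDK6. Proteasome subunits had absent peaks at 6 of 12 genes, with PSMD13 the highest (6.06, 16 tags).

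The lipid synthesis list holds enzymes and a carrier of fatty acid, sterol and sphingolipid synthesis that the metabolic screen of the study singled out. Of 6 with a DMSO promoter peak 4 had an absent peak and 1 was peak-free. The peak of FASN, chr17:82097588-82098820, was at 1233 bp the widest of all absent peaks. It had 32 tags and an E-box 4 bp from its summit, and a trametinib peak of 20 tags lay 209 bp away while the nearest AMG510 peak was at 12393 bp. ELOVL1, a fatty acid elongase, had 20 tags (5.41) with an AMG510 peak 384 bp away. ACACA, the acetyl-CoA carboxylase, had absent peaks of 17 and 16 tags at different start sites and another peak that was kept. SLC25A1, the mitochondrial citrate carrier, was peak-free, with absent peaks of 16 tags (3.85) and 13 tags (3.25).

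Of 9 other genes of sterol and fatty acid supply 6 had an absent peak, and 3 were peak-free. Those included SREBF2, the master factor of sterol synthesis (4.24, 10 tags), and SCD, the stearoyl-CoA desaturase (4.10, 15 tags). ACLY, the ATP citrate lyase (5.30, 18 tags), and CYP51A1, a demethylase of sterol synthesis (3.82, 15 tags), had another peak that was kept. PMVK, the phosphomevalonate kinase (4.41, 19 tags), had an AMG510 peak 311 bp away. The median strength over these lists was 5.06 and 4.58.

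The lysosome, autophagy and PIKfyve list had the highest share of the 22, with absent peaks at 19 of 27 genes (70.4%). Over all genes with a DMSO promoter peak the share was 58.4%. Both lipid lists and the ERM and actin list reached 66.7%, and none of these differences was tested. In the lysosome list 13 genes (48.1%) were peak-free, near the 44.8% of all genes with a DMSO promoter peak. Among the stronger ones were ATG3, the conjugating enzyme of LC3 lipidation (5.85, 15 tags), and ATG16L2 (5.63, 15 tags). Peak-free genes with weaker peaks included TFE3, a transcription factor of lysosome biogenesis (4.44, 12 tags), CTSD, cathepsin D (4.13, 10 tags), LAMP1, a lysosomal membrane glycoprotein (3.61, 9 tags), and PIKFYVE itself, the kinase that makes PtdIns(3,5)P2 (3.67, 10 tags). SQSTM1, the autophagy receptor p62 (5.06, 27 tags), had an absent peak with an E-box and another peak that was kept. Of the 19 absent peaks 3 had an E-box, and the median strength over the list was 4.90, close to that of all genes.

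**Figure D5:**
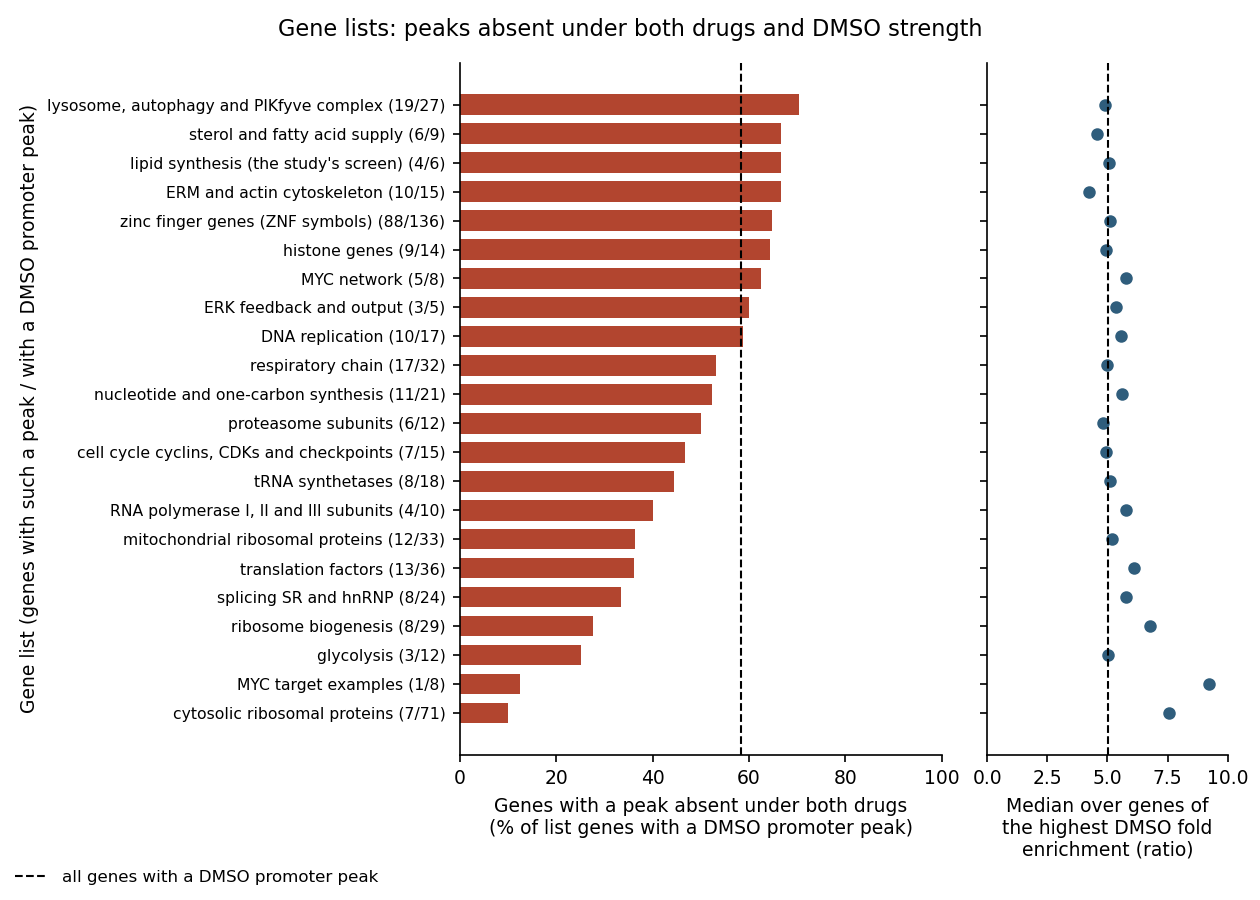
Left, genes with at least 1 absent peak as a percent of the genes with a DMSO promoter peak in each of 22 lists (x axis, counts beside the names), with 58.4% of all genes as a dashed line. Right, the median over the genes of a list of the highest DMSO fold enrichment (x axis, ratio), with 5.01 of all genes as a dashed line. The cytosolic ribosomal protein genes combine 9.86% with a median of 7.56, and the lysosome and autophagy genes 70.4% with 4.90. These are the lowest and highest shares of the 22 lists, and no share was tested.

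The MYC network and the ERK pathway lists were small. In the network around MYC 5 of 8 genes had an absent peak and 4 were peak-free, MLXIP, the MLX partner MondoA (6.55, 22 tags, with an E-box 4 bp from the summit, and a second peak of 17 tags), MAX, the partner of MYC (5.35, 18 tags), MNT, a MAX-binding repressor (5.06, 26 tags), and MYCL (4.31, 15 tags). MGA, another MAX partner (4.66, 11 tags), had an AMG510 promoter peak elsewhere. Of 5 genes that report or restrain ERK signalling 3 had an absent peak and all 3 were peak-free, SPRY1 (5.72, 19 tags), ETV4 (5.34, 22 tags) and DUSP5 (4.31, 13 tags). The counts with an absent peak were each close to the 58.4% of all genes. The peak-free genes are read against the 76.8% of all genes with an absent peak.

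Cytoskeletal, zinc finger and histone genes completed the lists. Absent peaks were found at 10 of 15 genes of ERM proteins and actin (66.7%), whose median strength was the lowest of the lists at 4.25. Beside MSN these included CFL1, the actin-severing cofilin (5.29, 16 tags), RHOA, a small GTPase (5.15, 14 tags), and TMSB10, an actin-sequestering thymosin (4.97, 20 tags). Genes with a ZNF symbol had them at 88 of 136 (64.7%), with 76 peak-free, and their 92 absent peaks held 9 to 27 tags, 30 of them on chromosome 19. Histone genes had them at 9 of 14, where divergent pairs such as H2BC4 and H2AC6 shared 1 peak (4.95, 17 tags). In glycolysis 3 of 12 genes (25%) had an absent peak, PFKM, SLC16A1 and GPI, and the list's median strength was 5.02.

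Absent peaks were spread over the genome. Over 23 chromosomes the absent share of promoter peaks ran from 49.6% on chromosome 7 (Wilson 95% interval 43.3 to 55.8) to 65.0% on chromosome 22 (55.5 to 73.6), and these intervals overlapped narrowly.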

How the data were processed

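Before deposit, the authors used Trimmomatic 0.39 to trim the reads and BWA 0.7.17 for alignment against GRCh38, removed duplicates with Picard and called peaks per library with MACS2 2.2.7.1, as the methods and the submitters' processing notes give it. The deposited lists hold, per peak, a score (10 times the −log10 q-value, as a truncated integer), the fold enrichment as a ratio, and the −log10 p-value and −log10 q-value that the authors' caller gave, with calls made at q = 0.05. Groups were taken from the sample titles.

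From these, the whole number of tags at each summit was solved from fold enrichment and p, and for 100% of peaks a whole number gave back the deposited −log10 p-value within a relative tolerance of 0.0001. Depth was taken from the genome-wide background and a genome of 2700000000 bp. Mates are not independent molecules, and neither are any PCR copies left after duplicate removal, so intervals are too narrow. Coordinates are 1-based on GRCh38, with genes of GENCODE version 44. Overlap meant at least 1 shared base, and bedtools 2.31.1 gave the same 6998 DMSO peaks absent from both drug lists as the own code. By the letter of the rule 2601 peaks qualify, and 1 on mitochondrial DNA was left out. Shares carry Wilson 95% intervals and differences Newcombe 95% intervals (SciPy 1.17.1, pandas 2.3.3). No interval was adjusted for the number of comparisons. Recovery, overlap, interval and motif code was tested on simulated data. Genes of the lists were matched by symbol, and a gene was named by the protein-coding TSS nearest to the summit or by its list.

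Named were the 25 absent peaks of highest fold enrichment, the 5 of largest pileup, the leading members of 22 gene lists with every member of the short lists, some further members of the longer lists that were picked after their values were seen, and the peaks at the edges of the rule. The members and the lists were chosen with earlier results of these data known. Alternatives varied the promoter distance, the set of TSSs, the allowed gap to a drug peak, filters on strength, the sequence window and the comparison class. Some members are not reported here.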

Additional observations from a re-analysis of the deposited data

How the results depend on the processing

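The absent share of promoter peaks was 56.3% and stayed within its interval at 500 bp or 2 kb from the TSS, with canonical TSSs only, with TSSs of every transcript type and without peaks that overlap IgG. It moved to 54.0%, 48.0% and 45.6% when a drug peak within 100 bp, 500 bp or 1 kb counted as overlap, to 39.4% among DMSO peaks of fold enrichment above 5, to 31.6% among those with a score above 60, and to 62.9% with fold enrichment above 5 required in all 3 c-MYC lists. The count of 2135 peak-free genes became 751, 454 and 1414 under those 3 filters on strength, and the median DMSO fold enrichment of 4.55 became 5.54, 5.91 and 5.67, since the filters remove weak peaks. The difference in E-box share between absent peaks and those kept under both drugs (−16.3 points) and that in CpG-rich windows (−7.25) kept their sign and an interval clear of 0 under every alternative run. None of these alternatives held DMSO strength equal between the classes. Weighting the peaks kept under at least 1 drug to the strength of the absent ones took the E-box difference from −10.7 to −4.03 points. Within classes of strength, the E-box interval held 0 from 4 to 5, from 5 to 6 and at 8 and above. CpG-rich windows were not compared at equal strength. The difference in IgG overlap (0.066 points) turned to −0.067 at 2 kb, −0.033 above a fold enrichment of 5, −0.26 with that limit in all 3 lists and −0.0060 against peaks kept under at least 1 drug, always with an interval that held 0. With a 50 bp window, chosen after seeing the data, the difference for GCATGC turned from −0.17 to 0.062, and the E-box interval below a fold enrichment of 4 held 0 (−6.27 to 1.58). Against peaks kept under at least 1 drug, the CCAAT interval left 0 (2.77 points) and the one for start sites on both strands came to hold it (−1.31). No paired analysis was possible because no group had more than 1 library, and there was no replicate to leave out. Peaks of 8 to 36 tags limit all of these values.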
